A study of Mus musculus with 35 samples.

Results

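Lungs of mice that inhaled 10 ppm styrene were compared with lungs of mice that inhaled 5 ppm, with 5 arrays at each dose out of 35 arrays in the dose series. The arrays were chosen by the dose on their labels alone. Of 45141 probe sets on the array, those listed with a single gene were kept, and the brightest probe set stood for each of 17097 genes. The 10 ppm and the 5 ppm groups were both adult male wild-type C57BL/6 mice, and whole lung was sampled from each. Each animal inhaled styrene, a volatile aromatic hydrocarbon, once for 6 h and was euthanised the next morning, so both groups had inhaled styrene. Which exposure chamber each animal was in is not given in the labels, and its part in any difference was not tested. Mice exposed to clean air (0 ppm) and to 1, 20, 40 or 120 ppm belonged to the same series. Their arrays enter the estimate of spread in the tests, and their levels are given below only where they are named. The question is which genes respond to a dose above the one at which interferon genes had already risen.

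In mouse lung, styrene is oxidised to styrene oxide by cytochromes of the airway club cells, above all Cyp2f2, and the oxide is cleared by epoxide hydrolase and glutathione transferases. Injured airway epithelium releases cytokines and chemokines that call in leukocytes. It also lays down provisional matrix and switches on keratins and squamous proteins while it is repaired. Type 2 inflammation is the arm of the response in which the eotaxins draw eosinophils, CCR4 ligands draw T helper cells and goblet cells make mucus.

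Signals are log2 values that the authors normalised, and differences are 10 ppm minus 5 ppm on that scale. In limma with Benjamini-Hochberg adjustment over the 17097 genes and a threshold of 0.05, 794 genes (4.64%) differed. Of these, 257 (1.5%) were higher at 10 ppm and 537 (3.14%) were lower. Their median differences were 0.55 and -0.52, against -0.03 for all genes. A 2-fold or larger difference was found for 41 of the higher and 24 of the lower genes. Every array at 10 ppm lay above every array at 5 ppm for 202 of the 257 higher genes, against 2.5% of all genes, and below them for 440 of the 537 lower genes, against 5.77% of all genes. The calls and this separation come from the same arrays. The split into higher and lower genes depends on the scaling. It was 370 higher and 264 lower with arrays centred on their median, 387 and 405 once the trend with signal level was taken out of every array, and 290 and 453 after a repeated quantile normalisation. Without 10 ppm replicate 2 the lower genes numbered 300.

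Correlations between arrays of a dose group lay between 0.987 and 0.996. The lung markers were in place, since Scgb1a1 (the club cell secretoglobin) lay between 13.82 and 13.88 at 10 ppm and between 13.84 and 13.9 at 5 ppm. Sftpd, the surfactant protein D of alveolar type 2 cells, lay between 12.8 and 12.93 at 10 ppm and between 12.44 and 12.74 at 5 ppm. The median of all gene signals was 0.0752 lower at 10 ppm (two-sided exact permutation p = 0.0159, Benjamini-Hochberg 0.0952 over 8 array summaries), and poly-A spike-ins were 0.288 lower (two-sided exact permutation p = 0.0873, adjusted 0.233). Their part in the calls was not tested beyond the scalings above and a fit with the spike-in level as a covariate. That fit ended 14 of the calls named below, those of Rsad2, Mx1, Traf1, Col6a3, Top2a, Mki67, Hadh, Creld2, Nupr1, Egr1, Cry2, Igf1, Scgb3a2 and Actg2. Some genes lay below the highest nonspecific-hybridisation control of their array, which stood between 5.79 and 6.37 at 10 ppm and between 4.57 and 6.43 at 5 ppm. For a dimmer group with such arrays the control replaced their signal and the fold is a lower bound ("at least"), while log2 differences keep the measured signals. In whole lung, fewer cells of a type and less RNA per cell cannot be told apart.

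The strongest responses at 10 ppm were in genes of type 2 inflammation, mucus secretion, the acute phase and wound matrix, and they separated the doses almost completely. Clca1, a secreted goblet cell protein, reached 10.17, 10.85, 11.22, 9.8 and 11.69 in the lungs at 10 ppm, against 5.82, 10.24, 5.02, 6.7 and 5.81 at 5 ppm. One lung at 5 ppm, replicate 2, was therefore as high as those at 10 ppm, and the groups overlapped. Clca1 was at least 13.8-fold higher at 10 ppm (log2 4.03, SE 0.83, adjusted p = 0.00271 in limma), and 4.91 higher on the log2 scale without that lung. Its second, dimmer probe set differed by 0.93.

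Ccl24 (eotaxin-2), which attracts eosinophils, lay at 8.11, 7.21, 6.97, 6.5 and 7.11 at 10 ppm and at 4.14, 4.35, 4.23, 4.25 and 3.81 at 5 ppm. All 5 lungs at 5 ppm were below the highest nonspecific control, and none of the lungs at 10 ppm was. The difference was at least 2.74-fold (log2 3.02, SE 0.31, adjusted p = 1.74e-07 in limma). Ccl11 (eotaxin-1), a second eosinophil attractant, lay at 6.29, 6.67, 6.2, 5.78 and 6.47 at 10 ppm and at 4.15, 3.87, 3.91, 4.78 and 4.6 at 5 ppm. Its groups did not overlap, and it was at least 1.43-fold higher (log2 2.02, SE 0.24, adjusted p = 2.8e-06 in limma). Both bounds are set by a single bright control. Against the next highest control they were at least 7.81-fold for Ccl24 and at least 3.65-fold for Ccl11.

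Of 17 genes of type 2 inflammation measured, 7 rose (41.2%), none fell and 10 did not pass the test, with a median difference of 0.35. Over all genes 1.5% rose and 3.14% fell, the shares against which this list and those below are to be read. Ccl17, a ligand of the CCR4 receptor made by dendritic cells and macrophages, averaged 9.45 ± 0.34 at 10 ppm and 7.82 ± 0.34 at 5 ppm (SD, n = 5 each), a 3.09-fold difference. Arg1, the arginase of alternatively activated macrophages, averaged 7.22 ± 0.51 at 10 ppm and 5.2 ± 0.22 at 5 ppm (log2 2.02, SE 0.50, adjusted p = 0.0136 in limma). Without 10 ppm replicate 1, the brightest Arg1 lung, its adjusted p was 0.0508. At 0 ppm Arg1 averaged 6.11 ± 1.17 (SD, n = 5). Its 10 ppm level did not pass against 0 ppm (log2 1.11, adjusted p = 0.17 in limma). The remaining 3 risers are named after their values were seen. They were Ccl22 (log2 1.30), also a CCR4 ligand, Rnase2a (1.27, with means of 4.77 at 10 ppm and 3.5 at 5 ppm), an eosinophil ribonuclease, and Retnla (0.77), a product of alternatively activated macrophages and airway epithelium. Retnla lies above log2 12, where the array may saturate.

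Upstream sequence was read for the risers among these genes that RefSeq promoters covered (4 genes, assembly GRCm38.p6, the 250 bases before the start). They were searched on both strands for TTC and GAA with 4 bases between them, the spacing that STAT6 prefers, and with 3 bases between them, the spacing of other STAT factors. Both motifs read the same on either strand. The first was present upstream of 2 of the 4 (Ccl17 and Retnla), against 5.85% of all 32851 promoters, and the second upstream of 1 of the 4 (Ccl17), against 7.02%. Of 13605 tested genes with an entry, 5.89% had the first and 7.59% the second. Of all 11 measured genes of the list with an entry, 4 had the first and 3 the second. In Ccl17 the matches do not overlap. The stretches are shown with the motif in capitals, since these are the members whose matches can be read, from chr8:94810279-94810328 and chr8:94810334-94810382 for Ccl17 and chr16:48842444-48842493 for Retnla, all on the + strand.
Ccl17, 4-base gap: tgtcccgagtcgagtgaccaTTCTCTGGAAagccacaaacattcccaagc
Ccl17, 3-base gap: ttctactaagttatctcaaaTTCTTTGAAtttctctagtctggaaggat
Retnla, 4-base gap: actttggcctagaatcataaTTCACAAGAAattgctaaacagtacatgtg
A match describes the letters of this window and says nothing about binding in these lungs.

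**Figure D1:**
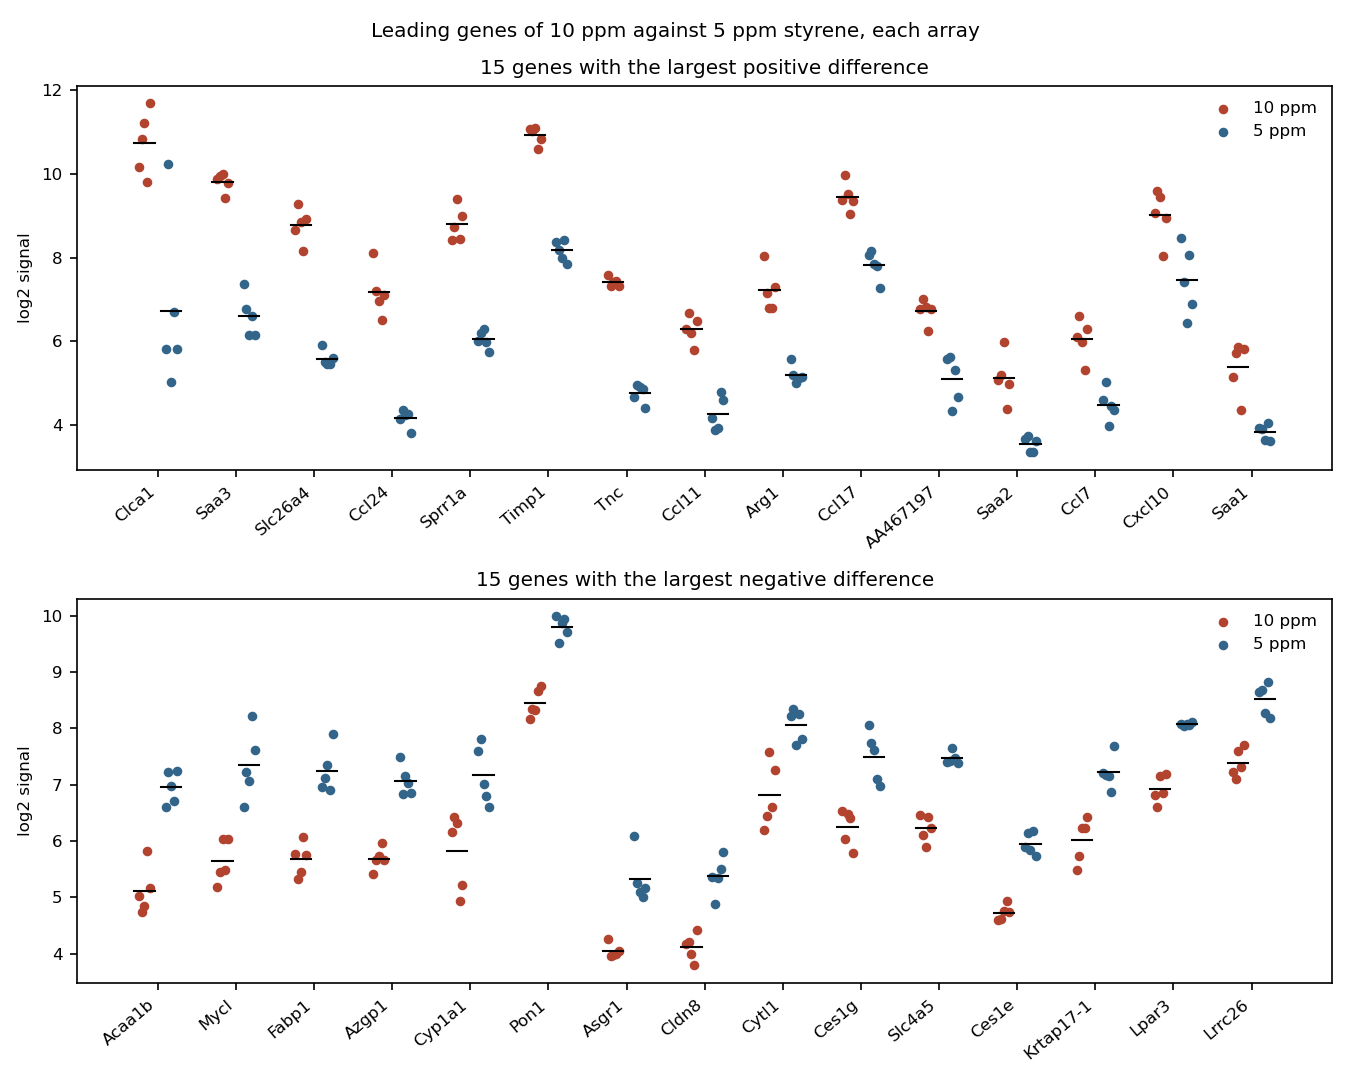
Log2 signal (vertical axis) of the 15 genes with the largest positive difference (upper panel) and the 15 with the largest negative one (lower panel) among genes that passed the test. Red points are the 5 arrays at 10 ppm, blue points the 5 arrays at 5 ppm and black lines the group means. Only Clca1 and Cxcl10 have arrays of the 2 doses that overlap, Clca1 through 1 lung at 5 ppm with a signal of 10.24.

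Few mucus genes besides Clca1 were called. Of 20 mucus and goblet genes measured, 2 rose, none fell and 18 did not pass the test, with a median of 0.08. The second riser was Slc26a4 (pendrin), an epithelial anion exchanger, at 8.66, 9.29, 8.84, 8.15 and 8.92 at 10 ppm and at 5.91, 5.5, 5.45, 5.44 and 5.6 at 5 ppm. No lung at 5 ppm came near those at 10 ppm, and the gene was at least 7.28-fold higher (log2 3.19, SE 0.37, adjusted p = 1.79e-06 in limma). Neither the gel-forming mucin Muc5ac (-0.15, SE 0.13) nor the goblet cell transcription factor Spdef (-0.02, SE 0.18) passed the test. Both are named after their values were seen.

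Acute phase genes of the IL-6 axis gave the second largest difference of all. Saa3, a serum amyloid A made in inflamed lung, lay at 9.87, 9.96, 10, 9.42 and 9.78 at 10 ppm and at 7.37, 6.76, 6.15, 6.59 and 6.15 at 5 ppm. The doses did not overlap, and Saa3 was 9.2-fold higher (log2 3.20, SE 0.42, adjusted p = 8.36e-06 in limma). Of 15 genes of this list, 5 rose, 1 fell and 9 did not pass, with a median of 0.42. Il6 itself lay at 5.92, 6.27, 4.31, 4.95 and 5.54 at 10 ppm, against 3.9, 3.7, 4, 4.18 and 3.87 at 5 ppm. These levels are mostly below the highest nonspecific control, so no fold is given (log2 1.47, SE 0.35, adjusted p = 0.00915 in limma). Lcn2, an iron-scavenging protein of epithelium and neutrophils, was 2.03-fold higher (11.62 ± 0.04 at 10 ppm and 10.59 ± 0.22 at 5 ppm, SD, n = 5 each). Lcn2 had already risen at 5 ppm against 0 ppm (log2 0.74, on shared arrays). Saa1 rose as well (log2 1.56), as did Saa2 outside the list (1.58), both below the highest control at both doses, and a second probe set of Saa2 differed by 0.529. Socs3, a feedback inhibitor named after its values were seen, rose by 0.83. The receptor chain Il6ra fell (log2 -0.51), with an adjusted p of 0.0508 in limma for the mean of its probe sets.

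Chemokines that attract monocytes rose with them. Ccl2 (log2 1.53, at least 1.56-fold) and Ccl7 (1.58, at least 1.26-fold), both ligands of CCR2, were the 2 risers among 14 neutrophil and monocyte cytokines, of which none fell and 12 did not pass (median 0.05). Ccl7 had already risen at 5 ppm against 0 ppm (1.09, on shared arrays), and Ccl2 did not pass there (0.76). No neutrophil marker was called (0 of 9 in limma, median -0.19), and their mean level per array was 5.44 to 6.3 at 10 ppm and 5.77 to 6.66 at 5 ppm. No marker of monocytes and interstitial macrophages was called either (0 of 7, median 0.01).

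Matrix and injury genes made up a further block. Timp1, an inhibitor of matrix metalloproteinases, lay at 11.07, 11.03, 11.09, 10.61 and 10.83 at 10 ppm and at 8.38, 8.19, 8, 8.43 and 7.85 at 5 ppm, a 6.74-fold difference (log2 2.75, SE 0.26, adjusted p = 3.19e-08 in limma). Tnc (tenascin C), a matrix glycoprotein of wounds, had 7.58, 7.31, 7.41, 7.43 and 7.31 at 10 ppm and 4.66, 4.95, 4.89, 4.86 and 4.41 at 5 ppm. Both genes separated the doses by more than the whole range within either group, and Tnc was at least 3.08-fold higher (log2 2.65, SE 0.23, adjusted p = 4.6e-09 in limma). The second, dimmer probe set of Tnc differed by 0.575, and the mean of both by 1.61. Of 17 provisional matrix and injury genes, 7 rose, none fell and 10 did not pass (median 0.43). The metalloproteinases Mmp3 (log2 0.91) and Mmp12 (1.14) were among them, the second with all lungs at 5 ppm and 3 of 5 at 10 ppm under the highest control.

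Collagens rose together by smaller amounts. Of 16 collagen genes, 10 rose, none fell and 6 did not pass, with a median of 0.46. Col4a1, of basement membrane, lay at 11.61, 11.67, 11.87, 11.66 and 11.58 at 10 ppm and at 11.3, 11.16, 11.18, 10.91 and 11 at 5 ppm. The doses did not overlap for this gene, whose difference was 1.48-fold (log2 0.57, SE 0.08, adjusted p = 1.2e-05 in limma). Col6a3 (0.56, adjusted p = 0.0731 in limma with the spike-in covariate) and Col18a1 (0.53) rose by similar amounts, and Col1a2 (0.54) did so at a signal below the highest control at both doses. Smooth muscle markers were also higher, 2 of 5 by the test (Acta2 at 0.62 and Actg2 at 1.05) and all 5 by sign. Their mean level per array was 8.58 to 9.34 at 10 ppm and 7.72 to 8.92 at 5 ppm. The other probe set of Acta2 differed by 0.0339, and the mean of both by 0.33. Actg2 lost its call without any 1 of 7 of the 10 arrays (10 ppm replicates 3, 4 and 5, and 5 ppm replicates 1, 2, 3 and 5). A fibroblast list had 1 member higher (Col13a1, 0.36, called without 10 ppm replicate 4 and lost without any other array), 1 lower (Inmt, -0.37) and 7 not called, with a median of -0.16. Its part and that of smooth muscle in the collagen difference were not tested.

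In the epithelial repair list, 5 of 19 genes rose, none fell and 14 did not pass (median 0.23). Sprr1a, a protein of the cornified envelope that injured epithelium also makes, lay at 8.42, 8.74, 9.4, 8.44 and 9 at 10 ppm and at 6, 6.19, 6.28, 5.99 and 5.74 at 5 ppm. The groups lay more than 2 log2 units apart, and the difference was at least 6.53-fold (log2 2.76, SE 0.25, adjusted p = 1.76e-08 in limma). The other risers included Lgals3 (galectin-3) at 0.57, Krt7 at 0.43 and Krt18 at 0.39. Lgals3 lies above log2 12 at 10 ppm, where the array may saturate. With 10 ppm replicate 3, 4 or 5 or 5 ppm replicate 1, 3 or 5 left out, 3 genes of the list were called. Krt18 was among the calls lost there, and it also lost its call without 10 ppm replicate 2. Hbegf, an injury-induced ligand of the EGF receptor, was 1.99-fold higher (9.79 ± 0.42 at 10 ppm and 8.79 ± 0.14 at 5 ppm, SD, n = 5 each, adjusted p = 0.00198 in limma). It was the 1 riser among 11 genes of that receptor and its ligands.

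**Figure D2:**
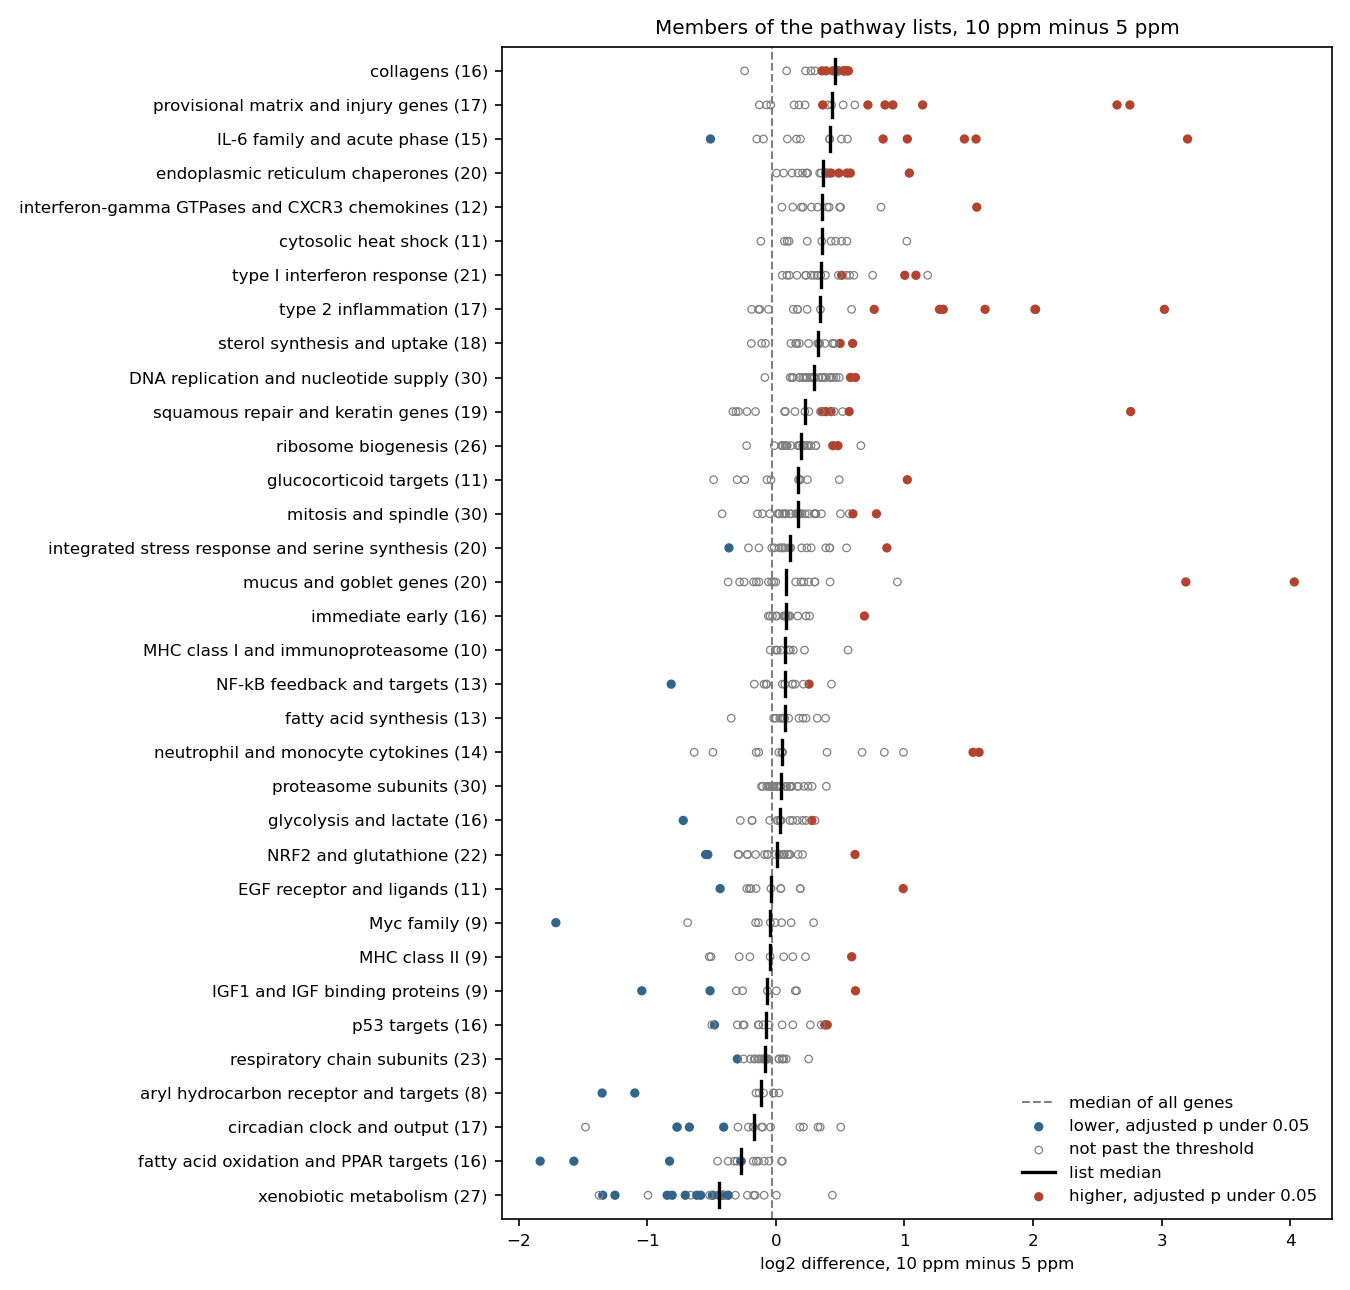
Log2 difference between 10 and 5 ppm (horizontal axis) for every measured member of the 34 pathway lists, ordered by list median, with the number of members in brackets. Red points are higher and blue points lower with an adjusted p under 0.05, open circles did not pass, black bars are list medians and the dashed line is the median of all genes (-0.03). Collagens have the highest median (0.46) and xenobiotic metabolism the lowest (-0.44).

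Interferon genes, which had already risen at 5 ppm, made up a small share of the calls between the doses. Of 21 genes of the type I response, 3 rose, none fell and 18 did not pass, and all 21 differences were positive, with a median of 0.35. The share higher was 14.3%, against 1.5% of all genes. With array weights 9 were called, and with the spike-in covariate 1. The same genes had a median of 2.40 at 5 ppm minus 0 ppm, a difference that shares the 5 ppm arrays with this comparison. Irf7, the transcription factor that amplifies the response, lay at 9.44, 10, 9.96, 9.46 and 9.87 at 10 ppm and at 9.66, 9.54, 8.88, 9.71 and 9.57 at 5 ppm. The doses overlapped for Irf7, and the difference of 0.27 (SE 0.18) did not pass (adjusted p = 0.488 in limma).

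The 3 that passed were the antiviral effectors Rsad2 (log2 1.09), Mx1 (1.00) and Mx2 (0.51, at least 1.24-fold). Mx1 lay at 8.58, 9, 8.61, 7.85 and 8.74 at 10 ppm and at 8.17, 7.59, 6.85, 7.71 and 7.45 at 5 ppm, with overlap (adjusted p = 0.0205 in limma). With 10 ppm replicate 2 left out none of the 3 was called, and with 5 ppm replicate 3 left out only Rsad2 was. Mx1 also lost its call without 10 ppm replicate 5, and Mx2 without 10 ppm replicate 1 or 3 or 5 ppm replicate 5. Cxcl10, which recruits T cells through CXCR3, was the 1 riser among 12 genes of the interferon-gamma and CXCR3 list, of which none fell (median 0.36). It lay at 9.07, 9.59, 9.44, 8.04 and 8.95 at 10 ppm and at 8.46, 7.42, 6.43, 8.07 and 6.88 at 5 ppm. It was 2.95-fold higher (log2 1.56, SE 0.39, adjusted p = 0.0137 in limma), and its adjusted p was 0.0534 without 10 ppm replicate 2 and 0.0574 without 5 ppm replicate 3. Cxcl10 had already risen by 3.13 at 5 ppm against 0 ppm (adjusted p = 1.51e-06 in limma, on shared arrays). Among 10 genes of MHC class I and the immunoproteasome none was called in limma, the 2 with the smallest p being Nlrc5 (0.56, adjusted p = 0.277) and Psmb8 (0.22, adjusted p = 0.394). Markers of T cells (0 of 8, median -0.17) and NK cells (0 of 6, median -0.15) had no call.

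Chaperones of the endoplasmic reticulum were uniformly on the higher side. All 20 differences were positive, 6 rose, none fell and 14 did not pass, with a median of 0.37. Sdf2l1, a component of the chaperone complex for newly made proteins, lay at 10.09, 9.92, 9.91, 9.48 and 9.86 at 10 ppm, against 8.66, 9.05, 8.85, 8.94 and 8.57 at 5 ppm. The doses were apart by less than 1 log2 unit at their nearest arrays, and the gene was 2.05-fold higher (log2 1.04, SE 0.18, adjusted p = 0.000553 in limma). Creld2 (0.58), Dnajb11 (0.55) and Hyou1 (0.49), all proteins of the same compartment, followed. With 10 ppm replicate 1 left out 3 members were called, and 10 were with arrays centred on their median. Creld2 lost its call without 10 ppm replicate 1 or 2 or 5 ppm replicate 1. The list median was 0.25 at 5 ppm minus 0 ppm, on shared arrays, and 0.31 at 20 ppm minus 0 ppm. Sdf2l1, Creld2, Dnajb11 and Hyou1 passed as higher at 20 ppm against 0 ppm. They did not pass at 20 ppm against 5 ppm, again on shared arrays.

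The endoplasmic reticulum stress element, CCAAT followed by CCACG with 9 bases between them, to which NF-Y and ATF6 bind, was searched on both strands of the same 250 upstream bases. It was present in 37 of 32851 promoters (0.113%) and upstream of 19 of 13605 tested genes with a RefSeq entry (0.14%). Of the 18 chaperone genes with an entry, 7 had it (38.9%). This share describes the genes of the list, called or not, and not the difference between the doses. Of the 5 risers with an entry, it was upstream of 1 (Creld2). The 7 genes are shown because they are the members in which the element is found, each 5′ to 3′ on the gene's own strand, with the element in capitals (assembly GRCm38.p6).
Hspa5: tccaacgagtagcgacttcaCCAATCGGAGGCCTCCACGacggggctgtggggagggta
Hsp90b1, distal: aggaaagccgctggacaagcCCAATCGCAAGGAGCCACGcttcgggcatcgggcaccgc
Hsp90b1, proximal: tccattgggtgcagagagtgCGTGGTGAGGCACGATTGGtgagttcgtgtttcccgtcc
Calr: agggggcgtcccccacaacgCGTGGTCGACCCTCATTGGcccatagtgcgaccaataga
Canx: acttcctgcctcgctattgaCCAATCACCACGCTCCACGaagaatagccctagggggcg
Pdia6: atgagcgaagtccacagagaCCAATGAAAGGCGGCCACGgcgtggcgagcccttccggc
Dnajc3: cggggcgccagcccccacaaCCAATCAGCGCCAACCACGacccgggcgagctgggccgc
Creld2: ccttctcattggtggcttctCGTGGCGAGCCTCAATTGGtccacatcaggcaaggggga
The element lies in the reverse direction in Calr, Creld2 and the proximal Hsp90b1 site. The sites are chr2:34772005-34772063 (Hspa5, +), chr10:86705618-86705676 and chr10:86705513-86705571 (Hsp90b1, -), chr8:84847055-84847113 (Calr, -), chr11:50325780-50325838 (Canx, -), chr12:17266471-17266529 (Pdia6, +), chr14:118937807-118937865 (Dnajc3, +) and chr15:88819500-88819558 (Creld2, +). The log2 differences of these genes were 0.35 for Hspa5, 0.44 for Hsp90b1, 0.25 for Calr, 0.24 for Canx, 0.34 for Pdia6, 0.41 for Dnajc3 and 0.58 for Creld2, and only the last passed the test. Among all 19 tested genes with the element, 16 differences were positive and 1 was called, with a median of 0.24. The 12 of them outside the chaperone list had a median of 0.11.

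Cytosolic heat shock genes had no call in limma (0 of 11, median 0.36, 10 positive). Dnaja1, a co-chaperone of Hsp70 with the smallest p among them, had 11.19, 11.35, 10.05, 10.33 and 10.16 at 10 ppm and 10.43, 9.79, 10.37, 10.21 and 9.73 at 5 ppm (log2 0.51, SE 0.22, adjusted p = 0.214). Only 10 ppm replicates 1 and 2 stood above the range at 5 ppm. Psat1, an enzyme of serine synthesis under the integrated stress response, was 1.82-fold higher (log2 0.86, adjusted p = 0.00688 in limma), the 1 riser of 20 genes, while Nupr1 fell (-0.36), a call kept on leaving out 10 ppm replicate 3 and lost with any other array.

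Few genes of cell division were called, all of them higher. Of 30 DNA replication genes 2 rose, none fell and 28 did not pass, and 29 of the 30 differences were positive (median 0.30). The risers were Mcm5 (0.62), a helicase subunit, and Uhrf1 (0.58), which maintains DNA methylation at the fork. With arrays centred on their median 8 were called, with level trends removed 9, and with 10 ppm replicate 1 left out none. Only 1 was called without 10 ppm replicate 3 or 4 or without 5 ppm replicate 1, 2, 3 or 5. Mcm5 (0.88) and Uhrf1 (1.61) had already risen at 5 ppm against 0 ppm in limma, on shared arrays. The median of the replication genes was 0.49 there. Of 30 mitosis genes 2 rose, none fell and 28 did not pass, with 26 positive and 4 negative differences (median 0.17). They were Top2a at 0.78, a topoisomerase whose other 2 probe sets differed by 0.057 and 0.163, and Mki67 at 0.60, a proliferation marker whose signals of 3.53 to 4.59 were below the highest control at both doses. Neither was called when 5 ppm replicate 2 was left out, and Mki67 kept its call only without 10 ppm replicate 1 or 5 ppm replicate 5. Top2a had likewise already risen at 5 ppm against 0 ppm (0.97, on shared arrays), while Mki67 did not pass there (-0.01).

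The lower genes were led by lipid handling, detoxification and a Myc family member. Acaa1b, a peroxisomal thiolase of fatty acid oxidation, lay at 5.03, 4.74, 4.85, 5.82 and 5.17 at 10 ppm and at 6.61, 7.23, 6.97, 6.71 and 7.24 at 5 ppm. All lungs at 10 ppm were below the highest nonspecific control and none at 5 ppm was. Its level at 10 ppm was lower by at least 1.89-fold (log2 -1.83, SE 0.23, adjusted p = 6.81e-06 in limma). Fabp1, a fatty acid carrier, fell likewise (log2 -1.57, at least 2.28-fold). Of 16 genes of fatty acid oxidation and PPAR targets 4 fell, none rose and 12 did not pass, with a median of -0.27. The other 2 were Acot1, an acyl-CoA thioesterase (-0.83), and Hadh, of mitochondrial beta oxidation (-0.27). Both lost their call without 10 ppm replicate 2, Acot1 also without 10 ppm replicate 1, and Hadh also without 10 ppm replicate 4 or 5 or any lung at 5 ppm but replicate 3.

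Mycl, a member of the Myc family expressed in dendritic cells, lay at 5.19, 5.46, 6.03, 5.49 and 6.03 at 10 ppm and at 6.61, 7.23, 7.07, 8.22 and 7.62 at 5 ppm. It was lower at 10 ppm by at least 2.46-fold (log2 -1.71, SE 0.23, adjusted p = 1.03e-05 in limma), and its other 2 probe sets differed by -1.23 and -0.77. The other 8 genes of the family list had no call. No dendritic cell marker was called (0 of 5, median 0.14).

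Detoxifying enzymes were the list with the largest share of lower members. Of 27 xenobiotic metabolism genes 12 fell, none rose and 15 did not pass, and the median was -0.44. Pon1 (paraoxonase, an esterase) lay at 8.17, 8.35, 8.33, 8.67 and 8.76 at 10 ppm and at 9.99, 9.51, 9.87, 9.94 and 9.71 at 5 ppm. The doses did not overlap, and Pon1 was 2.54-fold lower (log2 -1.35, SE 0.17, adjusted p = 5.4e-06 in limma). It had already fallen at 5 ppm against 0 ppm (log2 -1.03), a comparison on shared arrays.

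Carboxylesterases fell as well, with Ces1g (log2 -1.25, at least 2.29-fold), Ces1e (-1.23, outside the list) and Ces1d (-0.81) called. Ces1e was under the highest control in all lungs at 10 ppm and in 3 of 5 at 5 ppm, so no fold is given. Ces1g averaged 6.25 ± 0.32 at 10 ppm, 7.5 ± 0.46 at 5 ppm and 5.6 at 0 ppm, so its 5 ppm level stood above both (5 minus 0 ppm 1.90, adjusted p = 1.53e-05 in limma, on shared arrays). Aox3, an aldehyde oxidase, was 1.8-fold lower (-0.84). Ephx1, the microsomal epoxide hydrolase that clears styrene oxide, is named after its values were seen, with 9.81 at 10 ppm and 10.52 at 5 ppm (log2 -0.70, SE 0.10, adjusted p = 1.87e-05 in limma).

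Of the cytochromes that oxidise styrene, Cyp2f2 was measured near the top of the scale. It lay at 12.63, 12.68, 12.7, 12.7 and 12.79 at 10 ppm and at 13.18, 13.17, 13.05, 13.05 and 13.12 at 5 ppm. The doses did not overlap and Cyp2f2 was 1.33-fold lower (log2 -0.41, SE 0.08, adjusted p = 0.0015 in limma), but both levels lie above log2 12, so its true size is uncertain. Cyp2e1, the other styrene oxidase, lay at 9.38, 5.25, 7.18, 8.36 and 8.59 at 10 ppm and at 6.41, 8.19, 6.03, 8.31 and 7.63 at 5 ppm. It varied among lungs of one dose by more than 4 log2 units, and its difference of 0.44 (SE 0.80) did not pass (adjusted p = 0.876 in limma).

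Targets of the aryl hydrocarbon receptor had 2 of 8 lower and none higher (median -0.11). Cyp1a1, which oxidises aromatic hydrocarbons, lay at 6.17, 6.43, 6.33, 4.94 and 5.22 at 10 ppm and at 7.6, 7.82, 7.02, 6.8 and 6.61 at 5 ppm. It was at least 2-fold lower (log2 -1.35, SE 0.36, adjusted p = 0.022 in limma), with adjusted p between 0.0661 and 0.0884 without 10 ppm replicate 4 or 5 or 5 ppm replicate 1 or 2. Aldh3a1, an aldehyde dehydrogenase, was 2.14-fold lower (-1.10). It averaged 8.51 at 0 ppm and 8.98 at 5 ppm. Its 10 ppm level did not pass against 0 ppm (-0.625, adjusted p = 0.109 in limma). Among 22 NRF2 and glutathione genes, Hmox1 (haem oxygenase, 0.62) rose and the glutathione transferases Gstm1 (-0.55) and Gsta4 (-0.53) fell, while 19 did not pass (median 0.01). Hmox1 lost its call without any 1 of 7 arrays (10 ppm replicates 1 to 4 and 5 ppm replicates 3 to 5). Gsta4 lost it without 10 ppm replicate 1 or 2 or 5 ppm replicate 4. The 10 ppm level of Gsta4 did not pass against 0 ppm (-0.30, adjusted p = 0.179 in limma).

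Beside these falls, markers of the airway epithelium were lower as well. Of 9 club cell markers 3 fell and none rose (median -0.32), Cldn10 (a claudin, -0.78) and Scgb3a2 (a secretoglobin, -0.32) besides Cyp2f2. Their mean level per array was 10.03 to 10.14 at 10 ppm and 10.4 to 10.56 at 5 ppm. The defining marker Scgb1a1 differed by -0.02 (SE 0.05, adjusted p = 0.895 in limma), at a level above log2 13. Of 9 ciliated cell markers 1 fell, Tppp3 (-0.54), with a median of -0.25. The part of these cells in the enzyme differences was not tested. Scgb3a2 lost its call without any 1 of 8 arrays, all but 10 ppm replicate 5 and 5 ppm replicate 3.

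Among alveolar markers 1 of 9 for type 1 cells (Aqp5, 0.29, list median 0.03) and 1 of 8 for type 2 cells (Sftpd, 0.30, list median 0.04) rose and none fell. Alveolar macrophage markers were divided. Siglecf, their sialic acid lectin, lay at 6.27, 5.85, 5.54, 6.1 and 5.97 at 10 ppm and at 6.94, 6.97, 7.13, 6.43 and 7.05 at 5 ppm (log2 -0.96, SE 0.14, adjusted p = 3.22e-05 in limma). Pparg (-0.55), their differentiation factor, and Fabp1 fell too, whereas the scavenger receptor Marco rose (0.52), and 6 of 10 markers had no call. When 10 ppm replicate 5 or 5 ppm replicate 4 was left out Marco was not called, nor was Pparg without 5 ppm replicate 2 or 3. Eosinophils also carry Siglecf. Of 5 mesothelium markers 2 fell, the uroplakins Upk3b (-0.93) and Upk1b (-0.61), and all 5 were negative (median -0.61). Neither was called without 10 ppm replicate 2 or 3 or 5 ppm replicate 2 or 3, and Upk1b also lost its call without 10 ppm replicate 1 or 5 or 5 ppm replicate 4 or 5.

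**Figure D3:**
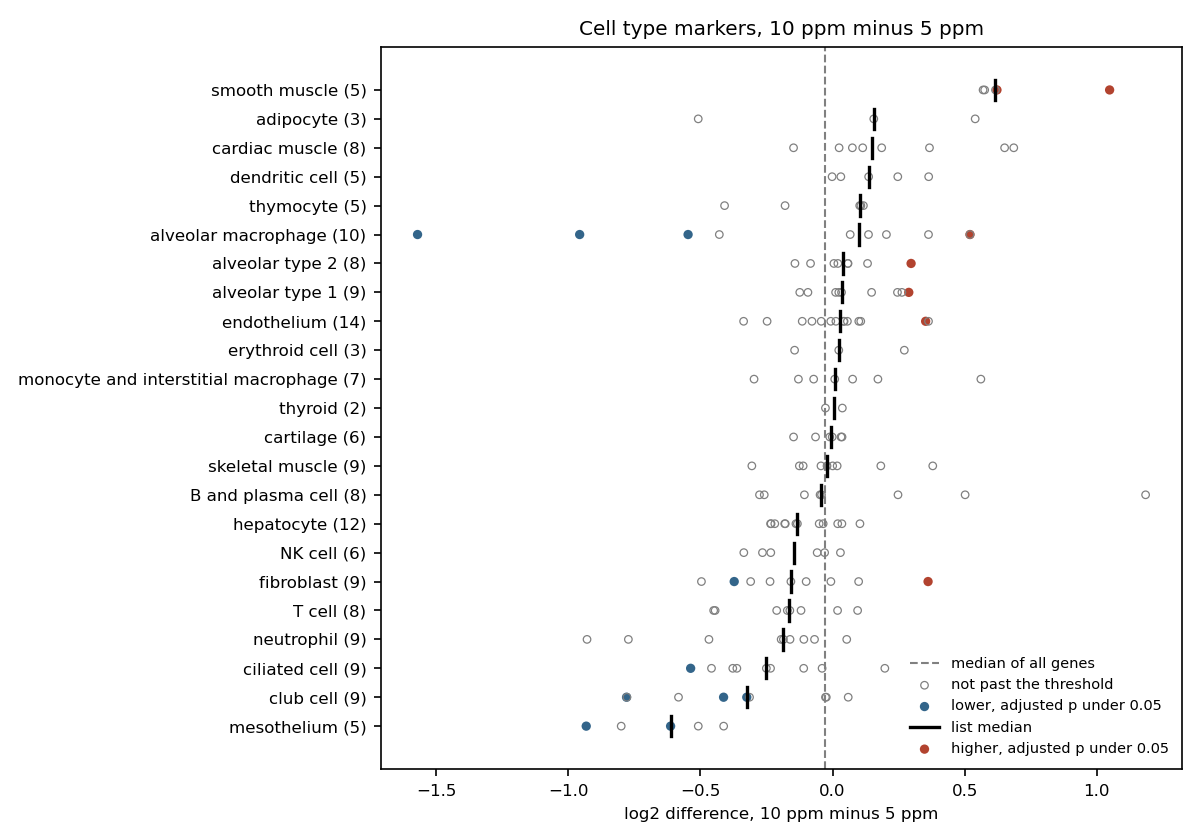
Log2 difference between 10 and 5 ppm (horizontal axis) for the measured members of 23 cell type marker lists, ordered by median, with numbers of members in brackets. Red and blue points passed as higher and lower, open circles did not pass, black bars are medians and the dashed line is the median of all genes. Smooth muscle markers have the highest median (0.62) and mesothelium markers the lowest (-0.61).

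Further single genes among the largest falls that passed had other roles. Dbp of the clock list (-1.48) and Sult1d1 of the xenobiotic list (-1.37), both named after their values were seen, had differences as large and did not pass. Azgp1, a secreted zinc-binding glycoprotein (-1.38), Asgr1, an asialoglycoprotein receptor subunit (-1.27), and Cldn8, a claudin (-1.26), fell. The last 2 were under the highest control in all lungs at 10 ppm and in 3 of 5 at 5 ppm, so no fold is given. Cytl1, a secreted cytokine-like protein, was 2.38-fold lower (-1.25), and Slc4a5, a sodium bicarbonate cotransporter, at least 2.21-fold lower (-1.24). Lpar3, a receptor for lysophosphatidic acid, lay at 6.82, 6.61, 7.15, 6.85 and 7.2 at 10 ppm and at 8.08, 8.05, 8.08, 8.06 and 8.12 at 5 ppm. Its lungs at 5 ppm were nearly identical, and it was 2.23-fold lower (log2 -1.16, SE 0.16, adjusted p = 2.92e-05 in limma). Krtap17-1 (-1.20) and Lrrc26 (-1.13), an accessory subunit of a potassium channel, complete the 15 largest falls that passed the test. Against 0 ppm, Krtap17-1 did not pass at 20 ppm (0.09) or 40 ppm (-0.16) and was higher at 120 ppm (1.72). Ldhb, a lactate dehydrogenase subunit, fell by 0.72 on the log2 scale while Gapdh rose by 0.28, at a level above log2 12. Ldhb had already fallen at 5 ppm against 0 ppm (-0.41, on shared arrays).

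The remaining lists had few calls. AA467197, outside the lists and among the 15 largest rises, was at least 1.8-fold higher (log2 1.62). It had already risen at 5 ppm against 0 ppm (0.94, on shared arrays). Icam1, an adhesion molecule, rose (0.26) and Traf1, a signalling adaptor, fell (-0.81) among 13 NF-kB targets. Aen (0.40) and Phlda3 (0.38) rose and Sesn1 fell (-0.48) among 16 p53 targets. Fbl (0.44) and Utp20 (0.48), which process ribosomal RNA, rose among 26 ribosome biogenesis genes, and Mvd (0.60) and Fdps (0.50) among 18 genes of sterol synthesis and uptake. Fdps had already risen at 5 ppm against 0 ppm (0.57, on shared arrays), and Mvd did not pass there (0.29).

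Single members were called in several lists more, and 1 call in a list can lie near the share over all genes. For the respiratory chain list the share lower was 4.35%, against 3.14% of all genes. Egr1 rose (0.69) among 16 immediate early genes, H2-DMb1 (0.59) among 9 of MHC class II and Lcn2 among 11 glucocorticoid targets, while Ndufb3 fell (-0.30) among 23 respiratory chain genes and Erbb3 (-0.43) beside Hbegf. Egfl7 (0.35) was the 1 riser of 14 endothelial markers. Of these genes Icam1, Traf1, Aen, Phlda3, Sesn1, Mvd, Fdps, Egr1, Erbb3 and Egfl7 lost their call without each of 5 to 8 single arrays. H2-DMb1 lost it without 5 ppm replicate 4 and Ndufb3 without 10 ppm replicate 1. With the mean of all probe sets of a gene, Aen (adjusted p = 0.101 in limma), Mvd (0.0763) and Erbb3 (0.201) were not called. Proteasome subunits (0 of 30, Psmd13 at 0.28 and Psmd14 at 0.39) and fatty acid synthesis genes (0 of 13, Elovl6 at 0.39 and Elovl1 at 0.21) had no call in limma. Nor had markers of B and plasma cells, erythroid cells, cardiac and skeletal muscle, hepatocytes, adipocytes, thymocytes, thyroid and cartilage, with medians between -0.14 and 0.16.

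The clock output factors Tef (-0.67) and Hlf (-0.77) and the repressor Cry2 (-0.40) fell among 17 clock genes, with none higher and a median of -0.17. Hlf lay mostly under the highest control. Leaving out 10 ppm replicate 2 or 5 ppm replicate 5 left 1 of the 3 called. Cry2 also lost its call without 10 ppm replicate 1 or 5 ppm replicate 1, 2 or 3. Igfbp3 (-1.04) and Igfbp6 (-0.51), which bind insulin-like growth factors, fell, and Igf1 itself rose (0.62, at least 1.45-fold). The Igf1 call was lost on leaving out any 1 of 8 of the 10 arrays (all but 5 ppm replicates 4 and 5). Its other, dimmer probe sets differed by 0.825 to 1.33. The mean of all its probe sets differed by 0.99 (adjusted p = 0.00142 in limma).

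The other doses show where the step between 5 and 10 ppm lies in the series. Comparisons of 20 with 0 ppm and of 40 with 0 ppm use none of the 10 arrays. Of the 257 higher genes, 198 (77%) also rose at 20 ppm against 0 ppm, where 6.45% of all genes did, and none fell. At 40 ppm against 0 ppm, 173 rose (67.3%, against 7.69% of all genes). Of the 537 lower genes, 362 (67.4%) fell at 20 ppm against 0 ppm, where 6.74% of all genes did. The single opposite call at 20 ppm was Npas4, a neuronal transcription factor at 2.97 at 10 ppm and 3.24 at 5 ppm. At 40 ppm against 0 ppm, 224 of the lower genes fell (41.7%, against 5.04%) and 3 rose. Against 1 ppm in place of 0 ppm, 161 of the higher genes rose at 40 ppm (62.6%, against 9.25% of all genes) and 180 of the lower genes fell (33.5%, against 5.29%), with 2 and 9 opposite calls. With 10 ppm replicate 2 left out, 237 lower genes were among those that fell at 20 ppm.

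Relative to 0 ppm, the median of the 257 higher genes was 0.04 for the 1 ppm group and 0.12 for the 5 ppm group, then 0.73 (10 ppm), 0.61 (20 ppm), 0.53 (40 ppm) and 0.73 (120 ppm). The median of the 537 lower genes was -0.08, -0.06, -0.55, -0.47, -0.29 and -0.16 at these doses. The values at 5 and 10 ppm chose the genes and are a description only.

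**Figure D4:**
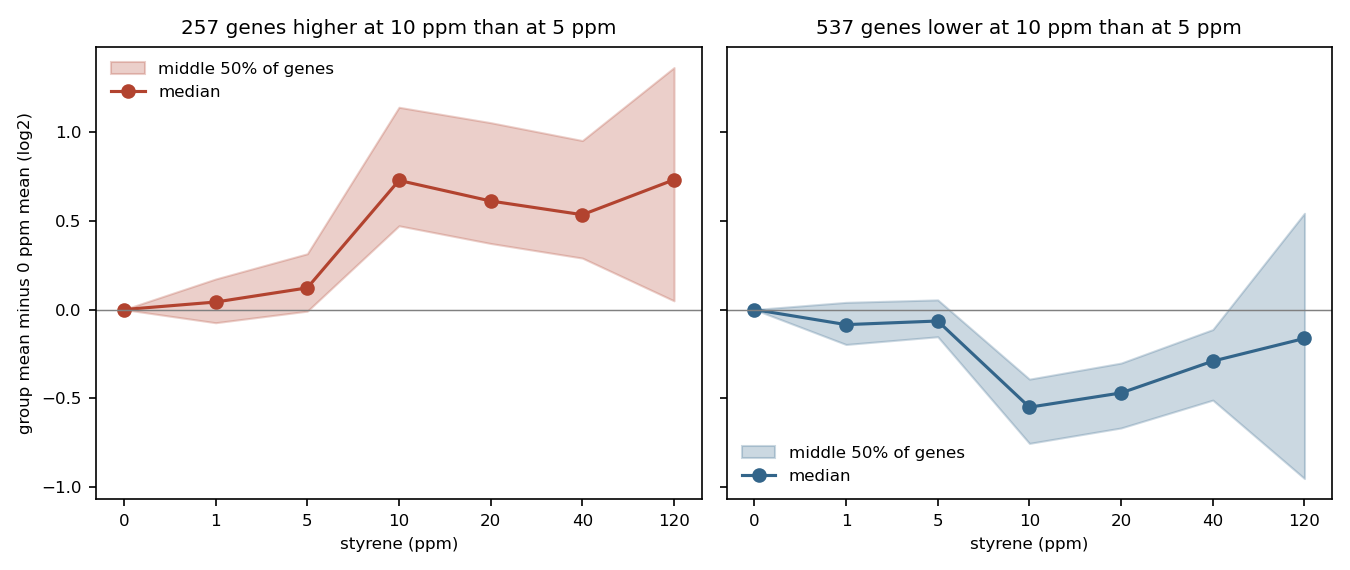
Group mean minus the 0 ppm mean (log2, vertical axis) by styrene dose (horizontal axis, not to scale) for the 257 genes higher and the 537 genes lower at 10 ppm than at 5 ppm. Lines are medians over genes and bands the middle 50% of genes. Medians at 5 ppm are 0.12 and -0.06, and those at 20 ppm are 0.61 and -0.47. The 20 ppm arrays entered the choice of called genes through the shared spread, not through the difference.

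Some leading genes also differed from 0 ppm at the higher doses. Saa3 averaged 9.47 at 20 ppm and 8.43 at 40 ppm against 6.08 at 0 ppm. Timp1 averaged 10.41 at 20 ppm and 10.25 at 40 ppm against 7.49 at 0 ppm. Mycl stayed low, at 4.94 at 20 ppm and 5.17 at 40 ppm, against 7.06 at 0 ppm. All 3 passed at both doses against 0 ppm in limma.

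Other leading genes did not pass against 0 ppm at 40 ppm, and some of them not at 20 ppm either. Clca1 averaged 6.29 ± 2.68 at 20 ppm, 4.4 ± 0.66 at 40 ppm and 4.7 ± 0.85 at 0 ppm (SD, n = 5 each). Ccl24 averaged 5.04 at 20 ppm and 4.05 at 40 ppm, against 4.16 at 0 ppm. Arg1 was at 6.83 at 20 ppm and 5.75 at 40 ppm, against 6.11 at 0 ppm. At neither dose did these 3 genes pass against 0 ppm. Acaa1b passed as lower at 20 ppm (5.94, against 7.73 at 0 ppm) and did not pass at 40 ppm (7.13). Ccl11 passed as higher at 20 ppm (5.22, against 4.03 at 0 ppm) and did not pass at 40 ppm (4.48).

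**Figure D5:**
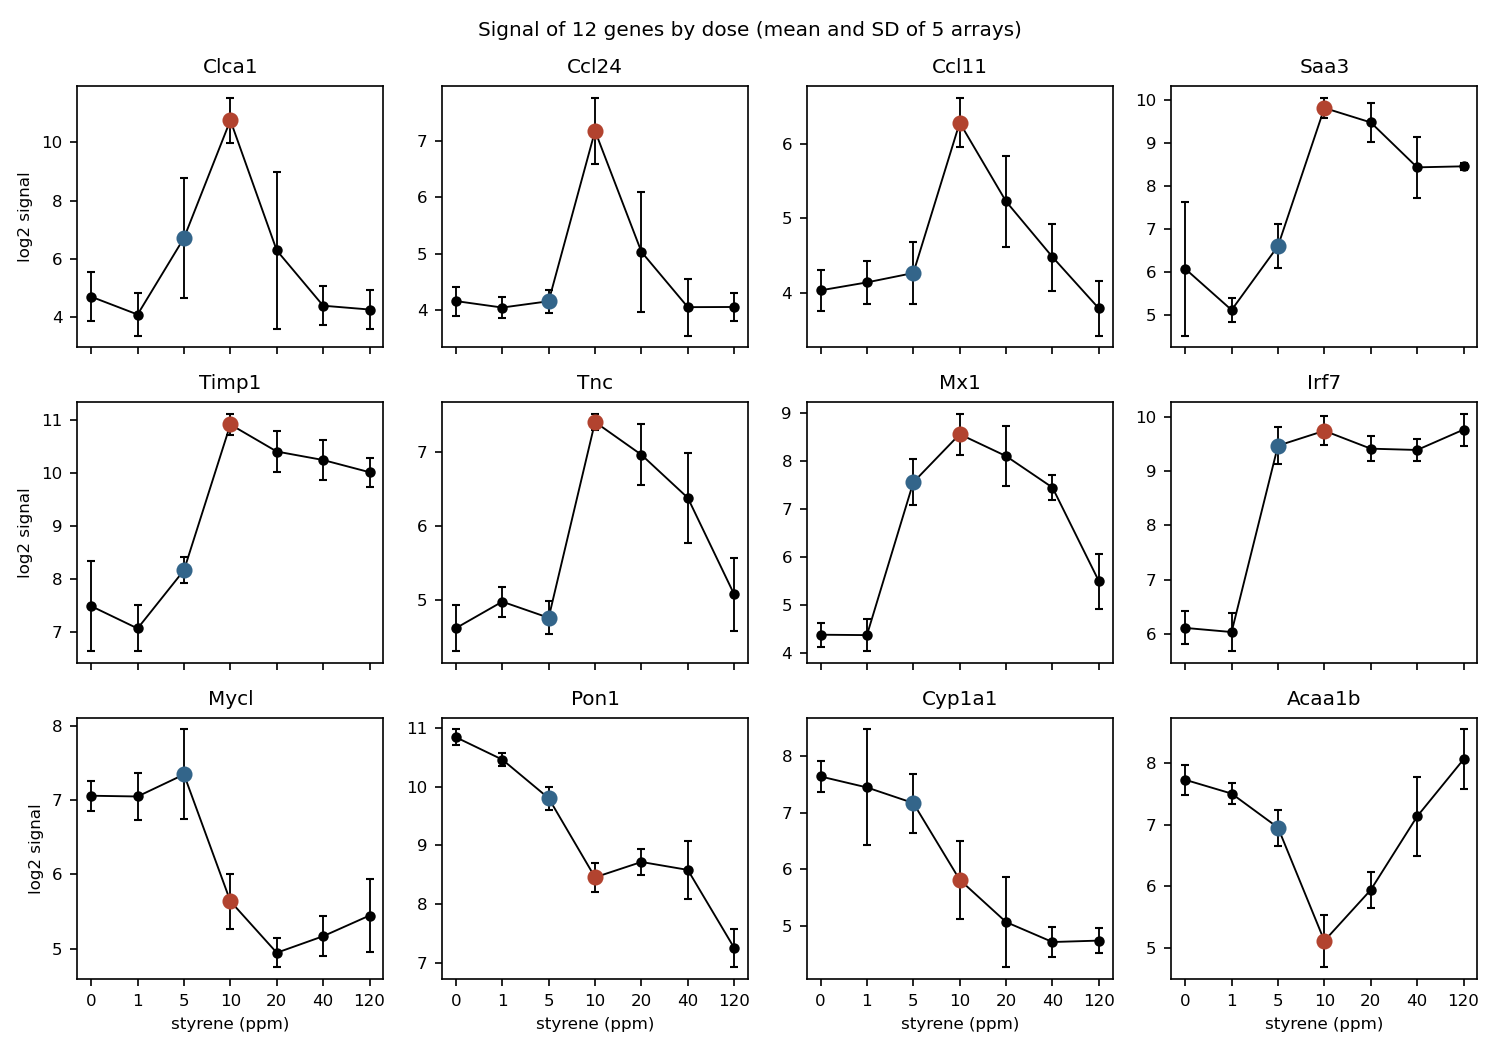
Log2 signal (vertical axis, its own range for each gene) of 12 genes by styrene dose (horizontal axis, not to scale), as means with SD of 5 arrays. The 10 ppm group is marked in red and the 5 ppm group in blue. Clca1 and Ccl24 peak at 10 ppm (10.75 and 7.18), while Irf7 stands at 9.75 at 10 ppm and 9.47 at 5 ppm.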

How the data were processed

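RNA from whole lung was hybridised to Affymetrix HT MG-430 PM arrays. The authors deposited log2 signals per probe set, made with RMA and Partek per the submitters' processing notes. Tool versions, background step and scan dates were not given in the labels. The labels call the 5 arrays of a dose biological replicates, but 1 ppm replicate 5 and 5 ppm replicate 1 share a title number. If replicates were not separate animals, p-values measure only the spread between arrays, and their number limits precision.

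Of 45141 probe sets, 104 are controls, 28898 are listed with 1 gene symbol (from GEO's platform annotation, which can be old), 551 with several and 15588 with none. Each gene was represented by its brightest probe set, by mean signal across the 35 arrays. Using R 4.3.3 and limma 3.58.1, a model with 1 mean per dose took in every array (lmFit, contrasts.fit, eBayes, 28 residual and 4.617 prior degrees of freedom), with tables read by the R package data.table (version 1.17.8), two-sided, with Benjamini-Hochberg adjustment over 17097 genes. Figures used Python 3.11.15, numpy 2.4.6 and matplotlib 3.10.9. "Rose", "fell" and "called" mean an adjusted p under 0.05. The members, the gene lists (34 pathway and 23 marker lists) and the tests were chosen with earlier results of these data known.

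Named are, among called genes, the 15 with the largest difference in each direction, leaving out provisional names, up to 4 called members of each list in each direction, up to 2 members of a pathway list with no call, and Cyp2f2, Cyp2e1, Scgb1a1, Irf7 and Pon1. Others are marked as chosen after their values were seen. On simulated data for 17097 genes of this comparison, 50 genes were set to each fold. Of these, 20% at 1.25-fold, 72% at 1.5-fold, 92% at 2-fold and 100% at 4-fold were called, and 8 of 16897 unchanged genes. The adjusted threshold depends on how many genes differ, and 794 were called in the data, so these rates need not hold there.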

Additional observations from a re-analysis of the deposited data

Results flagged for a closer look

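Each named gene and array summary was searched at both doses for an array standing apart from the other 4 by Dixon's ratio, above 0.71. Of 242 groups searched 11 stood out, and chance flags about 1 in 20 groups. No array accounts for more than 2 of them.

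At 10 ppm, 4 genes had such an array. Mmp3 in replicate 1 was 8.71, with the others between 9.2 and 9.32. Sftpd in the same array was 12.8, with the others between 12.9 and 12.93. Psmb8 in replicate 4 was 9.95, with the others between 10.22 and 10.3. Upk1b in replicate 4 was 8.63, with the others between 8.24 and 8.35.

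At 5 ppm, 7 genes had one. Replicate 1 stood high for Asgr1 (6.1, others 5 to 5.25) and low for Hlf (4.57, others 5.46 to 5.78). Replicate 3 stood low for Nlrc5 (6.41, others 7.02 to 7.25) and for Irf7 (8.88, others 9.54 to 9.71). Replicate 4 stood low for Cry2 (7.54, others 7.69 to 7.74) and for Siglecf (6.43, others 6.94 to 7.13). Mki67 in replicate 5 was 3.92, with the others between 3.53 and 3.63.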

How the results depend on the processing

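Over 27 alternatives, none of the 102 named called genes changed sign, 44 kept their call in every alternative that tested them and 63 did so without each array in turn. The higher and lower genes numbered 257 and 537. Of these, 198 rose and 362 fell at 20 against 0 ppm. Leaving out 1 array gave 177 to 239 higher, 300 to 568 lower, 138 to 190 rising and 237 to 379 falling at 20 ppm. A fold change of at least 1.5 gave 108, 189, 86 and 117 in that order, array weights (0.158 to 2.18 per array) gave 615, 1281, 482 and 873, and omitting the 120 ppm group gave 414, 1014, 316 and 666. A threshold of 0.1 gave 841 lower and 552 falling, centring 264 and 212, and removal of level trends 387 higher and 301 rising. All non-control probe sets gave 411 higher, and the 10 arrays alone gave 854 lower. The cause of these shifts was not tested, apart from the thresholds, which act by construction. Centring turned the sign of 5 differences, none past its adjusted threshold before. They were Scgb1a1 (0.0515), the upper quartile (0.0450) and lower quartile (0.0695) of signals, hybridisation controls (0.0497) and nonspecific controls (0.0652). The unadjusted exact permutation p of each quartile was 0.0476 when centred. With the spike-in level as a covariate, chosen after seeing the data, 374 genes were higher and 583 lower.

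With the replicate number as a block, 299 genes were higher and 646 lower. The labels do not say that same-numbered arrays share more than the number. Their deviations from the group means correlated at 0.0879, -0.508, -0.443, 0.0355 and 0.371, mixed in sign, which does not settle it. Omitting the 2 arrays with a shared title number gave 202 and 420. Dim signals limit folds. Of the named called genes, 35 had a dimmer group at or below the highest nonspecific control on some array, 11 below the next highest, and 10 no fold at all.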

Other observations

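Of the 41 genes higher at 10 ppm by 2-fold or more, 6 had a mean at 20 ppm that was again lower than at 10 ppm by 1 log2 unit or more, a group chosen after the values were seen and given without a test. Beside Clca1, Ccl24 and Ccl11 these were Slfn4, a Schlafen family gene of myeloid cells, Sprr2a1, a cornified envelope protein, and Scin, an actin-severing protein. Slfn4 averaged 5.54 at 10 ppm, 4.18 at 5 ppm and 4.48 at 20 ppm. Sprr2a1 averaged 6.91 at 10 ppm, 5.79 at 5 ppm and 5.5 at 20 ppm. Scin averaged 5.09 at 10 ppm, 4.06 at 5 ppm and 3.92 at 20 ppm. Their lowest arrays at 10 ppm were 4.8, 5.98 and 4.38, and their highest arrays at 20 ppm 4.73, 6.06 and 4.35, so Sprr2a1 overlapped between these doses. Ccl11 did so too (5.785 and 5.872), while Clca1 (9.8 and 9.59) and Ccl24 (6.505 and 6.256) did not. Of the 24 genes lower by 2-fold or more, none returned by that much at 20 ppm.

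Probe sets not listed with a gene were tested apart (15588), and 93 were higher and 124 lower at 10 ppm than at 5 ppm.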
